A study of Mus musculus with 3 samples.

Results

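The TRIM family was examined in ribosome-depleted total RNA of the cytosol of macrophages grown from the bone marrow of C57BL/6J mice. The cells had received 100 ng/ml of lipid A, the ligand of Toll-like receptor 4 within bacterial lipopolysaccharide, for 90 min. There was 1 group of 3 libraries, numbered by the labels as biological replicates 1 to 3 with the same donor identifier and no sex recorded. Nothing in the labels says that they came from separate cultures or animals, so p-values measure only the spread between these samples, which may be technical. Members were all protein-coding genes whose symbol is Trim followed by a digit, which gave 68 of 55536 annotated genes, or of 22028 protein-coding genes. Untreated cells were not analysed here, so no induction was measured and levels were compared between genes within each library.

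Proteins of the TRIM (tripartite motif) family carry a RING finger, B-box domains and a coiled coil, and most act as E3 ubiquitin ligases, the enzymes that choose which protein receives ubiquitin from an E2 enzyme. The domain at the C-terminal end, most often a SPRY domain, usually binds the target. In macrophages the family is known for antiviral restriction and for tuning the pathways downstream of RNA, DNA and Toll-like receptor sensing, and many members are induced by interferon.

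Replicates 1, 2 and 3 had 33671556, 47764593 and 59332546 counts on annotated genes. The 3 counts that a count of 0 allows correspond to 0.0891, 0.0628 and 0.0506 CPM (counts scaled to the library total), for counting error only, since reads are not independent molecules. All 10 macrophage markers lay above the reference level defined below, with a median of 402 TPM (a level corrected for transcript length). Of 7 neutrophil markers, S100a9 was above it (23.2, 13.0 and 21.6 TPM), S100a8 had no call (15.0, 7.77 and 13.8 TPM) and 5 were below. Summed, the neutrophil markers came to 41.6, 24.4 and 41.9 TPM. Of T and natural killer cell, erythroid and fibroblast markers, 0 reached 0.1 TPM, and 3 of 7, 4 of 5 and 0 of 5 had no TPM in any library. Of 5 B cell and 5 dendritic cell markers, 1 and 4 reached 0.1 TPM, all below the reference. Malat1, an RNA retained in the nucleus, differed widely between the libraries, at 128, 335 and 913 TPM. In bulk RNA, fewer cells of a type and less RNA per cell cannot be told apart.

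Stretches upstream of 3 neighbouring members of the Trim30 group are shown because these genes are among the highest of the family and their promoters align. The sequences are from RefSeq (GRCm38.p6), 5′ to 3′ on the strand of the gene. Capitals mark the core of the interferon-stimulated response element (ISRE), GAAANNGAAA, which lies here on the complementary strand, and the bases of Trim30c aligned to it. They span chr7:104465206-104465265 in Trim30a, chr7:104507867-104507926 in Trim30d and chr7:104400892-104400951 in Trim30c, all on the minus strand. They begin at positions -72, -77 and -173 from the RefSeq start, in this order. For Trim30c this start lies inside the gene span given below, and not at the end of that span.
Trim30a: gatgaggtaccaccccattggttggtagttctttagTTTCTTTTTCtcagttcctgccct
Trim30d: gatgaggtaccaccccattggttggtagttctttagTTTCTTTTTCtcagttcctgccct
Trim30c: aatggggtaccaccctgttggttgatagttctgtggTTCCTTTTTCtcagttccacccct

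The Trim30a and Trim30d stretches were identical over the 60 bases, and their promoter windows aligned over 294 bases with 93.9% identity. Trim30c differed from Trim30a at 10 of the 60 positions, and the difference inside the capitals was T3C, counted from 1 at the first capital, with the Trim30a base first. The core was therefore not in this stretch of Trim30c, nor elsewhere in its window. Its level in these libraries is given below and was above the reference.

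The ISRE core also stood in the windows of other expressed members, shown with 10 bases on either side because 3 of them share the same core and its left flank.
Trim12a: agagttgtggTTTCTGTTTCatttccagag
Trim12c: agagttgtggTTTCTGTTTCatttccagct
Trim5: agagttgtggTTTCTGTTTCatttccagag
Trim34a: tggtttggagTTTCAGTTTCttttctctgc
Trim21: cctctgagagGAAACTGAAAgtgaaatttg
Trim26: ccgcttccgaTTTCACTTTCcttttctcgg

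These lie at chr7:104315466-104315495, chr7:104353359-104353388 and chr7:104288136-104288165 for Trim12a, Trim12c and Trim5 (minus strand), at chr7:104244457-104244486 for Trim34a (plus strand), at chr7:102565450-102565479 for Trim21 (minus strand) and at chr17:36836976-36837005 for Trim26 (plus strand). The capitals of Trim21 read as the core in the printed direction, and those of the others on the complementary strand. RefSeq windows, from 250 bases before to 50 bases after a start, were at hand for 53 members. The core, searched on both strands, was in the windows of 9 of them, or 16.98%, against 3.99% of all 27025 genes with a window. Those 9 were Trim30a, Trim30d, Trim12a, Trim26, Trim12c, Trim21, Trim34a, Trim5 and Trim2. It was in 8 of 20 members of at least 1 TPM and in 1 of 33 members under 1 TPM, Trim2. The same split was not made over all genes, so it says nothing on a link between the core and the level. Those 8 all belong to the interferon-inducible list described below, of which 12 members had a window. The members are not independent in these counts. The windows of Trim12a and Trim5 were identical over 241 aligned bases, and those of Trim12a and Trim12c agreed at 247 of 260 bases. Those of Trim30a and Trim30d agreed at 276 of 294 bases. The GAS motif (TTCNNNGAA, both strands) was in 6 members, or 11.3%, against 9.55% of all genes, and the NF-kB consensus in 1 member (Trim43a), or 1.89%, against 5.14%. A match describes letters in a window and not a bound site.

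Each gene was set against the reference level of its library, the median over the 8752 protein-coding genes that averaged 1 TPM or more, which was 7.38, 6.07 and 6.21 TPM in replicates 1, 2 and 3. A gene was called above or below it where the mean log2 difference was at least 1 in size and the adjusted p of limma's one-sample moderated test was under 0.05. Of the 68 members, 38 had a mean of at least 0.1 TPM and were tested. Of these, 6 were above the reference, or about the background share: 20.5% of the 13344 annotated genes tested, and 23.4% of the 11196 protein-coding genes tested, were above it. A further 17 were below, against a background of 50.6% of all genes tested and 43.7% of protein-coding genes. The other 15 had no call. The family's median level was 0.32 TPM over all members, against 0.12 TPM over all protein-coding genes, and the tested members had a median difference of -0.63, against -0.63 for protein-coding genes. Tested members thus had the same median difference as tested protein-coding genes, and they differed widely among themselves: the highest was 253 times the lowest tested. Members together made up 0.105% ± 0.00400 of protein-coding TPM (SD, n = 3), and the 6 highest held 50.6% of the family's sum. Protein-coding TPM itself summed to 266987, 219490 and 223540 in replicates 1, 2 and 3. Raw TPM values are thus not on the same scale between the libraries.

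**Figure D1:**
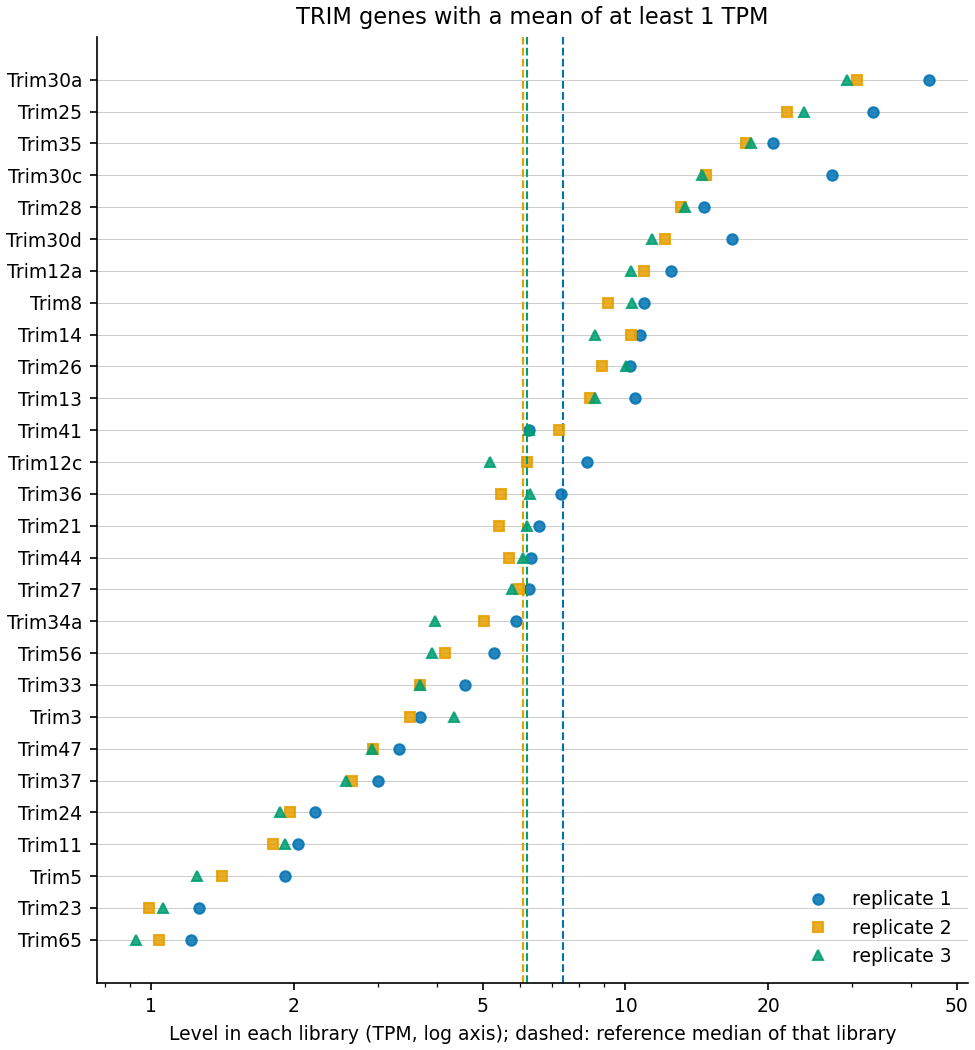
Level of the 28 TRIM genes that averaged 1 TPM or more in each of the 3 libraries (TPM, log axis), highest at the top, with the reference median of each library as a dashed line. Trim30a, Trim25, Trim35, Trim30c, Trim28 and Trim30d, the 6 genes called above, lie furthest right, and Trim30c stands out by its wide gap between replicate 1 (27.2 TPM) and replicates 2 and 3 (14.8 and 14.5 TPM).

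Trim30a, a mouse protein induced by interferon and reported to lower Toll-like receptor signalling by promoting the loss of Tab2 and Tab3, had the highest level of the family. It had 43.6, 30.8 and 29.3 TPM in replicates 1, 2 and 3, a log2 difference from the reference of 2.36 ± 0.17 (SD, n = 3) with an adjusted p of 8.56e-05. Trim25, the ligase known for its part in RIG-I signalling, followed with 33.4, 21.9 and 23.8 TPM (1.97 ± 0.17, adjusted p = 0.000132). In both genes replicate 1 was the highest library, and every library lay above its reference. In mm10 these genes lie at chr7:104409025-104465193 (minus strand) and chr11:88999376-89020293 (plus strand). Trim35 (chr14:66297031-66311424, plus strand), a SPRY ligase reported in human cells to bind pyruvate kinase M2, was steadier at 20.4, 17.98 and 18.4 TPM (1.52, adjusted p = 8.37e-05).

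Trim30c (chr7:104382065-104400837, minus strand) had 27.2, 14.8 and 14.5 TPM (1.45, adjusted p = 0.00191), with replicate 1 far from the other two. Trim28 (KAP1, chr7:12999114-13031035, plus strand), the co-repressor that KRAB zinc finger proteins recruit to silence retroelements, had 14.6, 13.1 and 13.4 TPM (1.06, adjusted p = 0.000232). Trim30d (chr7:104470014-104507849, minus strand) had 16.8, 12.1 and 11.4 TPM (1.01, adjusted p = 0.000735). The calls of these genes depended on settings. Without replicate 1 the difference of Trim30d was 0.90 and its call was lost. With the second deposited quantification, made from reads by another route, Trim35 (0.94), Trim30d (0.58) and Trim28 (0.27) were no longer called, while Trim30a (1.91), Trim25 (1.78) and Trim30c (1.07) were. Against a reference of genes of at least 5 TPM, Trim30a alone was called (1.34).

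Below these came 6 further members among the 12 highest, none of which was called. Trim12a, a mouse relative of the primate retroviral restriction factor TRIM5, had 12.5, 10.9 and 10.3 TPM (0.77). Trim8, which lacks a SPRY domain and is reported to act in NF-kB signalling, had 11.0, 9.17 and 10.3 TPM (0.63). Trim14, which acts at mitochondria as an adaptor of MAVS in human cells, had 10.8, 10.3 and 8.61 TPM (0.58). Trim26, a further SPRY ligase, had 10.2, 8.94 and 10.02 TPM (0.57). Trim13, a ligase anchored in the endoplasmic reticulum membrane, had 10.5, 8.43 and 8.64 TPM (0.48). These 5 were higher than the reference in all 3 libraries by less than the minimum log2 difference of 1. Trim41 had 6.25, 7.25 and 6.26 TPM (0.0096), below the reference in replicate 1 and above it in the other two.

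**Figure D2:**
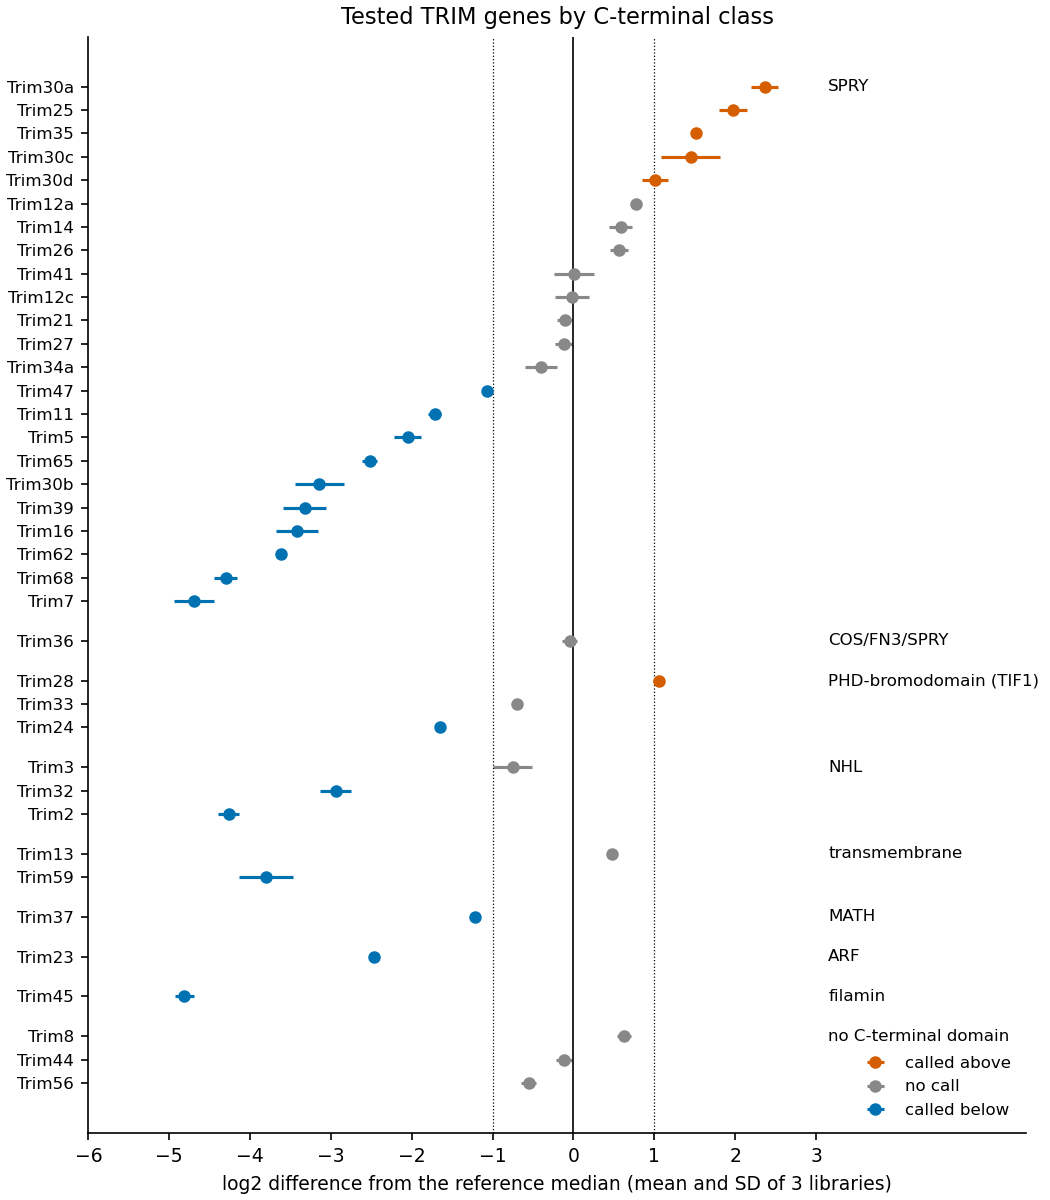
Log2 difference from the reference median for the 38 tested TRIM genes, as the mean and SD of 3 libraries, grouped by C-terminal class, with dotted lines at the minimum difference for a call. The called-above genes are 5 of the 23 tested SPRY members and Trim28, and each class other than the one without a C-terminal domain and the COS/FN3/SPRY class has at least 1 gene called below.

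C-terminal classes were assigned by symbol and were not checked against protein sequences. The 38 members classed as SPRY held 73.8% of the family's summed TPM. Of 23 tested, 5 were above (Trim30a, Trim25, Trim35, Trim30c and Trim30d), 10 were below and 8 had no call, and 4 of the 38 had no count in any library. These calls lay near the background of 23.4% above and 43.7% below among protein-coding genes tested. The SPRY members thus spanned nearly the whole range, from Trim30a down to Trim72, a membrane repair protein of muscle with 1 count in replicate 3 alone. The PHD-bromodomain class (TIF1) consists of chromatin co-repressors: besides Trim28, Trim33, which acts with Smad4 in TGF-beta signalling, had 4.58, 3.69 and 3.69 TPM and no call. Trim24, a co-regulator of nuclear receptors, had 2.22, 1.96 and 1.87 TPM and was below the reference (-1.65). Trim66 had 0.01, 0.01 and 0.03 TPM and was not tested.

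The 8 members without a C-terminal domain included 3 tested ones, all without a call: Trim8, Trim44 (6.31, 5.67 and 6.07 TPM) and Trim56, which is linked to STING and RNA sensing (5.27, 4.17 and 3.90 TPM). Trim29, the lowest detected of this class, had 0.01, 0.00 and 0.02 TPM. Of the NHL class, Trim3 had 3.68, 3.51 and 4.35 TPM and no call. Trim32 (1.00, 0.72 and 0.61 TPM) and Trim2 (0.29, 0.25 and 0.20 TPM) were below, and Trim71, a regulator of early development, had no count. Among the COS/FN3/SPRY members, which bind microtubules, Trim36 had 7.31, 5.46 and 6.28 TPM, at the reference (-0.049). The other 3 are known from neurons: Trim46 had 0.02, 0.04 and 0.02 TPM, Trim9 had 0.01, 0.00 and 0.00 TPM, and Trim67 had 2 counts in replicate 3 alone. Trim36 was therefore the only member of this class of at least 0.1 TPM.

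The remaining classes were small. Trim37, with a MATH domain (3.01, 2.65 and 2.58 TPM, -1.22), Trim23, with an ARF domain (1.26, 0.99 and 1.06 TPM, -2.47), and Trim45, with a filamin domain (0.16, 0.14 and 0.11 TPM, -4.81), were all below the reference. Of the 2 transmembrane members, Trim59 was below at 0.60, 0.28 and 0.30 TPM (-3.81), against no call for Trim13. The muscle ligases of the MURF class were close to absent: Trim63 had 2 counts in replicate 3 alone, and Trim54 and Trim55 had none. In all, 12 members had 0 expected counts in every library: Trim10, Trim31, Trim40, Trim42, Trim43a, Trim52, Trim54, Trim55, Trim60, Trim61, Trim71 and Trim75. A count of 0 allows up to 3 counts per library, as above. In TPM the limit differs by gene: the deposited upper bounds for Trim40 were 1.77, 0.869 and 0.709 TPM. The second quantification gave Trim52 0.055 and 0.073 TPM in replicates 2 and 3. A further 18 members had counts in at least 1 library but a mean under 0.1 TPM, among them Trim58 and Trim6.

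A list of 13 interferon-inducible members was described as a group. It was chosen from general knowledge, with earlier results of these data known, and not from an interferon treatment of these cells. Of its 11 tested members, 3 were above (Trim30a, Trim25 and Trim30d), 1 was below (Trim5) and 7 had no call (Trim12a, Trim12c, Trim14, Trim21, Trim26, Trim34a and Trim56). Among all protein-coding genes tested, 23.4% were above and 43.7% below. The levels of the listed members spread around the reference. Trim12c had 8.28, 6.21 and 5.18 TPM (-0.020). Trim21, the cytosolic receptor for the Fc part of antibodies, had 6.56, 5.40 and 6.21 TPM (-0.11). Trim34a had 5.89, 5.03 and 3.97 TPM (-0.41), and Trim5 had 1.91, 1.41 and 1.25 TPM (-2.05, adjusted p = 0.000116). The 2 untested ones were nearly silent. Trim6 had 0.04, 0.05 and 0.06 TPM, and Trim38 had 1 count in replicate 3 alone. The list's median difference was 0.57, against -0.63 over all tested members, the list included, and the contrast was not tested.

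Many members lie side by side in the genome. Chromosome 7 carried 16 members. Of the 12 tested, 4 were above the reference, against a background of 23.4% of protein-coding genes tested. On this chromosome, 10 members lie in a cluster of 289 kb from Trim6 to Trim30d (mm10, chr7:104218793-104507849). The cluster held 36.9% of the family's summed TPM, and Trim28, 1 of the 4, lies outside it. In the order of the chromosome, Trim6 (0.05 TPM on average) was followed by Trim34a (4.96), Trim5 (1.52), Trim12a (11.2), Trim34b (0.02), Trim12c (6.56), Trim30b (0.68), Trim30c (18.8), Trim30a (34.6) and Trim30d (13.4). Neighbours thus differed strongly: Trim30b had 0.98, 0.51 and 0.54 TPM beside Trim30c, and was below the reference (-3.14). Of 8 other annotated genes in the span, the highest, the pseudogene Gm16464, had 1.58 TPM. A second run of members lies on chromosome 17, where Trim26 (chr17:36837134-36859398) stood alone in level: Trim15 beside it had 0.02, 0.01 and 0.03 TPM, and Trim10, Trim40 and Trim31 after it had no count.

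**Figure D3:**
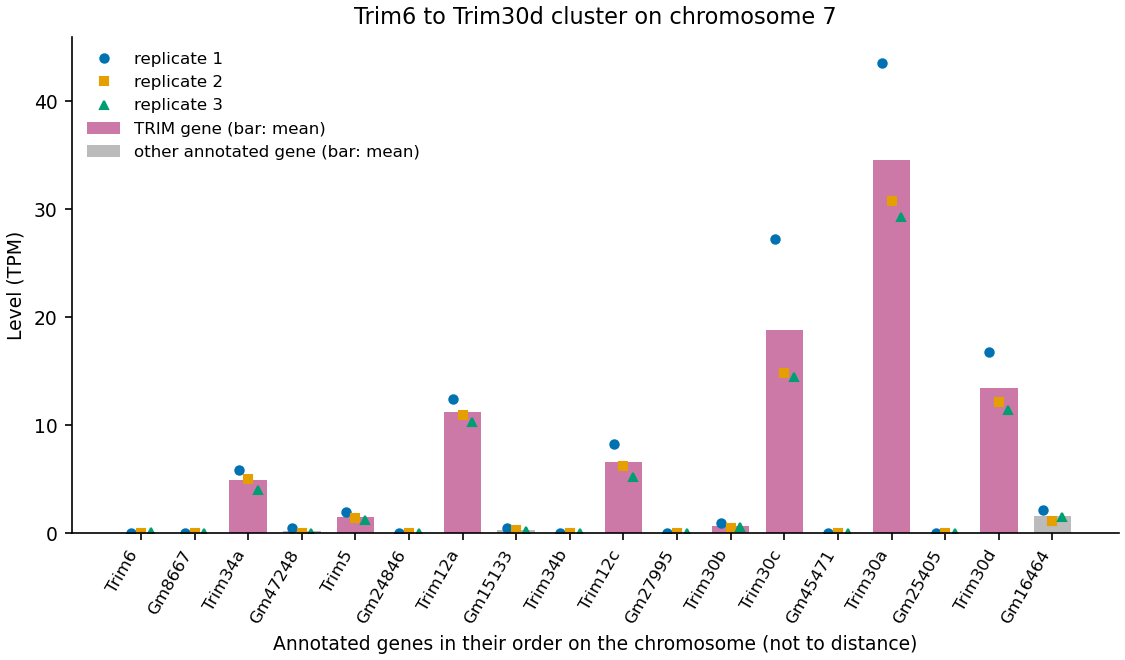
Level (TPM, linear axis from 0) of the 18 annotated genes from Trim6 to the end of Trim30d on chromosome 7, in chromosome order and not to distance, with bars for the mean and points for the 3 libraries. The 3 tallest bars stand together at Trim30c (18.8 TPM), Trim30a (34.6 TPM) and Trim30d (13.4 TPM), beside Trim30b at 0.68 TPM.

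Several of these neighbours are near copies, so their split of reads is uncertain. Expected counts were whole numbers (within 0.005) in all libraries for 30 of the 38 tested members, and were fractions, which arise where reads are divided between genes, for Trim30a, Trim30d, Trim12a, Trim12c, Trim34a, Trim5, Trim14 and Trim7. Transcripts of Trim34a and Trim34b were 98.7% identical over 1827 bases, yet Trim34a had 4.96 TPM and Trim34b 0.02 TPM. The second quantification also put them far apart, with Trim34a at 2.83, 2.02 and 1.35 TPM and Trim34b at 0.0106, 0.0127 and 0.0137 TPM. Trim12c and Trim5 shared 2458 bases at 95.04% identity, and Trim30a and Trim30d shared 301 bases at 97.7%. Other members overlap a neighbour on the map, and no source used here says whether counting was stranded. Trim14 shares 1356 exonic bases with Nans (5.57 TPM) on the opposite strand, and Trim41 shares 31 with Rack1 (104 TPM). Trim47 and Trim65 share 225 on the same strand.

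The 2 quantifications were compared gene by gene as a median-centred log2 ratio, second over first. Of the 28 members of at least 1 TPM, 12 had an adjusted p under 0.05 in limma, or 42.9%, against 49.0% of 9491 genes. A call also needed a log2 ratio of at least 1 in size, and 0 members reached it, against a background of 4.66%. At an unadjusted p under 0.05, 16 of the 28 differed, or 57.1%, against 60.3% of all genes. The median size of the ratio was 0.078 over the members, against 0.098 over all genes. The widest member ratios were -0.33 for Trim28 and 0.27 for Trim25.

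Variation between the libraries was measured on counts, as log2 CPM after TMM scaling. None of 38 members with at least 10 counts in every library varied more than genes of like abundance by the goodness-of-fit test of edgeR with Holm adjustment, against a background of 0.901% of 12316 genes. At an unadjusted p under 0.05 there was 1 member, Trim30c, or 2.63%, against 6.04% of all genes. The largest SDs were those of Trim59 (log2 CPM of 1.48, 0.68 and 0.73, SD 0.45), Trim39 (1.23, 1.64 and 2.05, SD 0.41), Trim30c (6.09, 5.49 and 5.44, SD 0.36), Trim7 (-0.93, -0.26 and -0.41, SD 0.35) and Trim16 (1.88, 1.58 and 1.25, SD 0.31). Of these 5, Trim30c is the only abundant gene, with 2399, 2103 and 2509 counts. It was highest in the library with the lowest total.

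The level in replicate 1 minus the mean of replicates 2 and 3 had a median of 0.027 over the 38 members, against -0.00043 over all 12316 genes. Over the 11 members of the interferon-inducible list the median was 0.18, against -0.022 over the other 27, and replicate 1 was the highest library for 7 of the 11, against 10 of the 27 and 38.3% of all genes. The 7 were Trim30a, Trim30d, Trim12c, Trim5, Trim21, Trim25 and Trim56, and Trim30c and Trim30b, which are outside the list, had differences of 0.62 and 0.53. Trim30a, for example, had log2 CPM of 8.02, 7.78 and 7.68, and Trim14 went the other way with 4.14, 4.41 and 4.29. The members are not independent in these counts: Trim30a, Trim30d, Trim12c and Trim5 lie in the same cluster and had fractional counts. Trim56 was highest in replicate 1 by little, with log2 CPM of 5.82, 5.81 and 5.74. These are descriptions of 3 libraries with no test. Replicate 1 also had the lowest total count and the lowest Malat1, and the part of either in the difference was not tested.

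**Figure D4:**
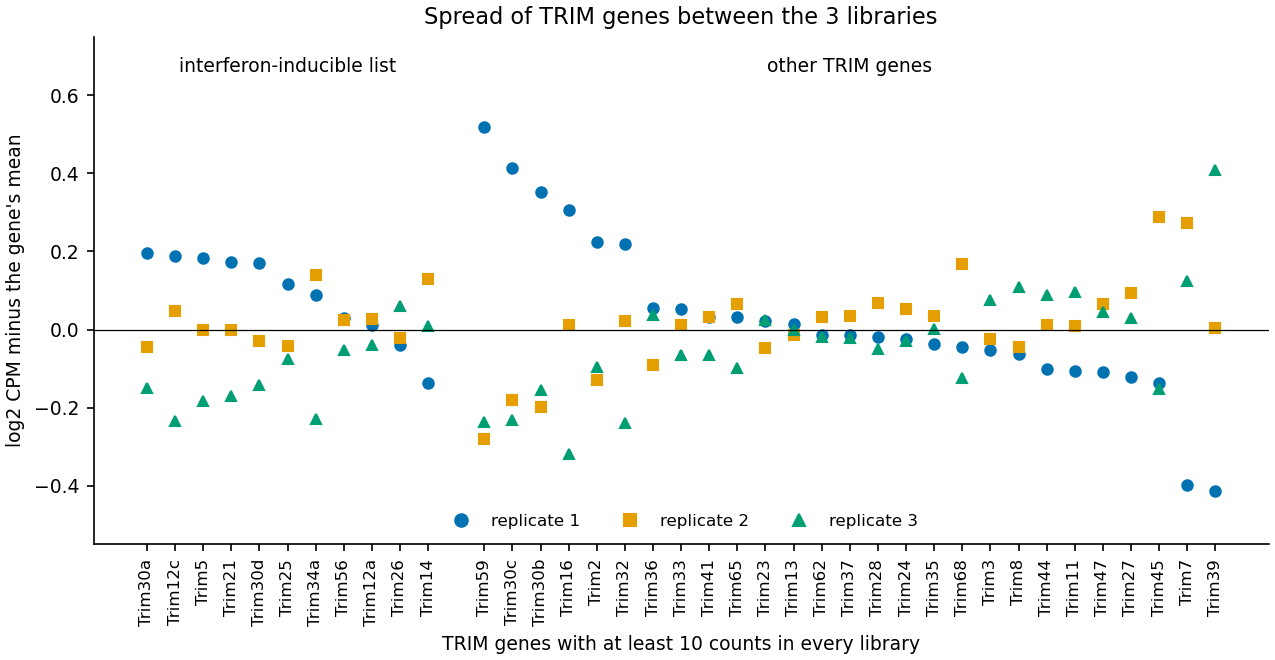
Log2 CPM of each TRIM gene with at least 10 counts in every library, minus the gene's own mean, in the 3 libraries, for the 11 members of the interferon-inducible list and the 27 other members, ordered by replicate 1. Replicate 1 is highest for 7 of the 11 listed genes, and the widest spreads are those of Trim59, Trim39 and Trim30c.

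Part of a gene's TPM can fall on transcripts that are not annotated as protein-coding, such as retained introns. Among 26 members with at least 1 TPM in every library, the median share of such transcripts was 0.70%, against 2.49% of protein-coding genes, and 11 of the 26 have no such transcript in the annotation. In 3 members it was at least 20% in every library, against a background of 13.6% of 8472 genes. Trim28 had 53.0%, 54.9% and 61.1%, Trim12a had 40.5%, 50.9% and 53.3%, and Trim26 had 28.7%, 36.3% and 45.0%. The level of Trim28 that was called above the reference includes its non-coding transcripts. The only coding transcript, Trim28-201, had 6.86, 5.90 and 5.21 TPM, lower than the reference of 7.38, 6.07 and 6.21 TPM in each library. That reference is a median of whole-gene levels, and the split of a gene between transcripts is an estimate. The retained-intron transcript Trim28-203, of 565 bases, held 39.8% ± 3.26 of the gene's TPM and Trim28-201 held 43.7% ± 4.20 (SD, n = 3). In the second quantification Trim28-203 held 21.7%, but the processed transcript Trim28-210 held 26.0% in place of 14.6%, and the non-coding share of the gene was 45.8%, 49.1% and 50.6%. Trim12a had 39.9%, 45.4% and 45.9% there. Trim26 did not keep its place, with 6.03%, 11.8% and 24.9%, and Trim14 reached 20% in every library in its stead (32.3%, 36.3% and 27.3%).

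The share differed between libraries in other members. Trim21 had 4.88%, 17.96% and 39.3% and Trim3 had 7.86%, 21.7% and 34.5% in replicates 1, 2 and 3, whereas Trim14 (28.1%, 24.5% and 12.4%) and Trim47 (31.7%, 18.03% and 15.8%) ran the other way. In the second quantification Trim21 had 16.0%, 35.6% and 47.1% and Trim3 had 15.6%, 33.9% and 45.2%, again with replicate 3 highest, whereas Trim14 was highest in replicate 2. Replicate 3 was the highest library for Trim28, Trim12a, Trim26, Trim21 and Trim3, and it was also the highest for Malat1 (913 TPM, against 128 and 335 TPM). The part of nuclear RNA in these shares was not tested. The members of this comparison were picked after their values were seen.

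**Figure D5:**
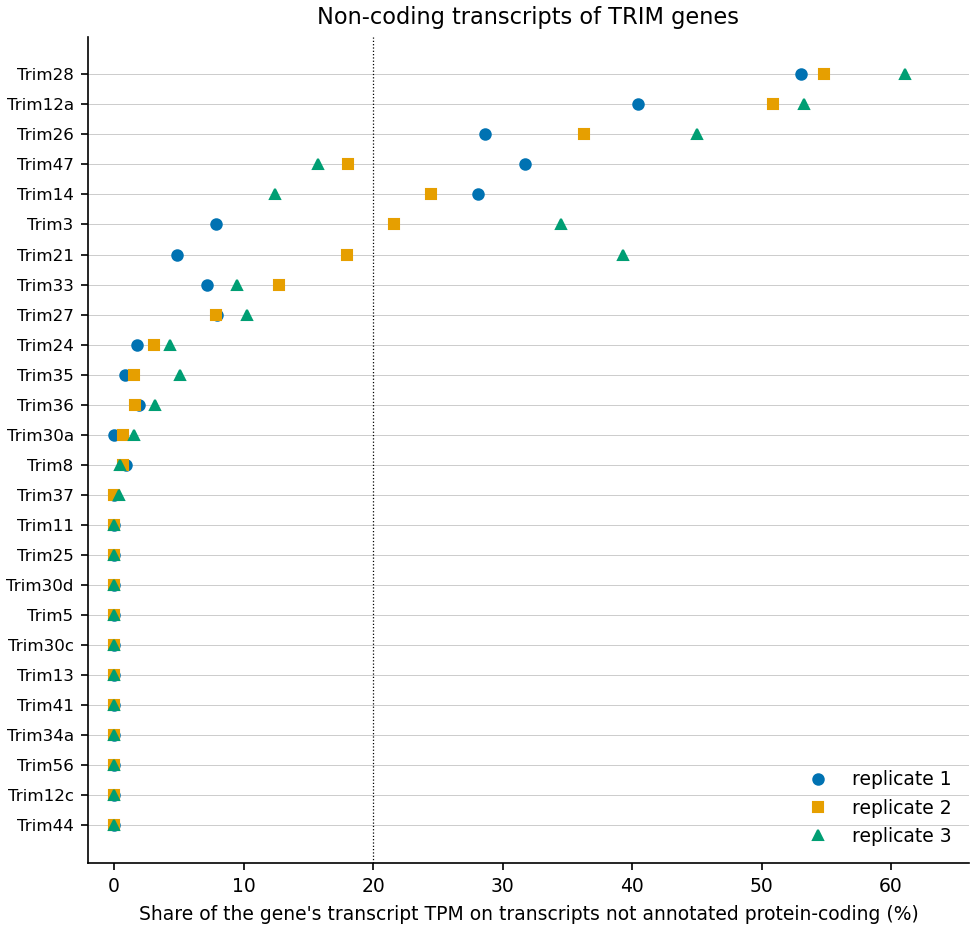
Share of each gene's transcript TPM (%) on transcripts not annotated protein-coding, in the 3 libraries, for the 26 TRIM genes with at least 1 TPM in every library, with a dotted line at 20%. Trim28, Trim12a and Trim26 lie right of the line in all 3 libraries, and Trim21 and Trim3 lie furthest right in replicate 3.

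Among coding transcripts, named here after their values were seen, Trim30d was split between Trim30d-202 (60.1% ± 0.503) and Trim30d-201 (39.9% ± 0.503), and the split moved little between libraries. Trim27 divided into Trim27-205 (53.6% ± 1.74) and Trim27-207 (37.1% ± 0.121). For Trim25 the long Trim25-203, of 5590 bases, held 80.3% ± 7.09 and the short Trim25-202, of 1433 bases, held 19.7% ± 7.09, but the second quantification gave the short one 45.6%. Trim30a, Trim12c, Trim44, Trim5 and Trim8 each had over 99% on a single transcript in the first quantification. The second gave these transcripts 96.1%, 95.4%, 100%, 97.8% and 98.1%, in this order. Trim30c has a single annotated transcript, so its share was fixed.

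Partners of the family were described from lists of related genes. The background for their calls was the share of all protein-coding genes tested, 23.4% above the reference and 43.7% below. Of 17 E1 and E2 enzymes, which hand ubiquitin to ligases, 9 were above the reference, 1 was below and 7 had no call. The highest were Ube2d3 (123, 99.3 and 97.7 TPM), Ube2l3 (64.2, 47.2 and 49.8 TPM) and Ube2d2a (45.9, 41.0 and 40.7 TPM), and Ube2e2 was below (0.42, 0.23 and 0.30 TPM). Ube2d3 was thus above Trim30a in every library. Of 17 sensors and signalling proteins that TRIM ligases are reported to act on, 7 were above, 3 were below and 7 had no call. Nlrp3, the inflammasome sensor, was the highest (147, 122 and 139 TPM), then Irf7 (46.9, 42.3 and 32.3 TPM) and Ifih1, the RNA sensor MDA5 (40.6, 29.7 and 31.4 TPM). The DNA sensor Cgas (2.34, 1.62 and 1.61 TPM), Tab1 (0.69, 0.65 and 0.58 TPM) and Tab3 (2.59, 2.29 and 2.08 TPM) were below. Tab2, named with Tab3 above as a reported target of Trim30a, was above the reference (36.5, 29.05 and 29.9 TPM).

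Of 10 tested partners of the TIF1 co-repressors, 1 was above, 1 was below and 8 had no call. Chd4, the remodelling helicase of the NuRD complex, was above (46.2, 41.2 and 46.9 TPM), followed by Cbx3 (14.9, 10.9 and 12.2 TPM) and Hdac1 (10.6, 8.05 and 8.89 TPM). Atf7ip, which binds Setdb1, was below (3.95, 1.95 and 2.73 TPM). Of 7 TRIM proteins listed under other symbols, 3 were tested and had no call: Pml (8.99, 5.99 and 5.14 TPM), Mid1 (5.76, 4.07 and 7.76 TPM) and Mefv (5.10, 4.48 and 6.00 TPM).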

How the data were processed

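Per the text deposited beside the files, reads were aligned to mm10 with the GENCODE M21 annotation. Per the file headers, the authors deposited gene and transcript tables with expected counts, TPM and FPKM, called here the first quantification, and a transcript table with estimated counts and TPM made from the reads by another route, the second. No source used here names the tools, their versions or the use of strand. TPM does not keep depth, so tests on TPM do not weigh it.

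Levels were log2(TPM + 0.1), minus the library's median over protein-coding genes averaging 1 TPM or more. Genes averaging 0.1 TPM or more were tested with limma 3.58.1 (Benjamini-Hochberg over all genes tested, adjusted p under 0.05 and a difference of at least 1). With low values, the pseudocount understates differences. Variability used edgeR 4.0.16 in R 4.3.3 on expected counts, rounded, for genes reaching 10 in each library, with TMM scaling, a prior count of 2 for log2 CPM and Holm adjustment. The steps were tested on simulated data. Copies were searched with blastn 2.17.0 (at least 95% identity over 200 bases) and exon overlaps with bedtools 2.31.1. RefSeq promoter windows (GRCm38.p6) were matched by symbol for 53 of 68 members. For 53 of their 67 windows the first transcribed bases were found in a GENCODE M21 transcript of the gene.

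Members, lists and C-terminal classes were chosen with earlier results of these data known. Values are given for members called above, the 12 highest, the 5 most variable, those at 0, the highest 3 and the lowest detected of each class, and the interferon-inducible list, and for the highest 3 and those below of other lists. Others were named for position, overlap or copies, and Tab2 for its mention beside Tab3, after their values were seen. Trim80 was not classed. FPKM, the second quantification, other pseudocounts, reference genes, filters and scalings (DESeq2 1.42.0 size factors) and leaving out each replicate served as alternatives.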

Additional observations from a re-analysis of the deposited data

How the results depend on the processing

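With the second quantification 3 members were above the reference, and against a reference of genes of at least 5 TPM 1 was above and 27 were below, in place of 6 and 17. With no filter on low values 47 were below, and with a filter of 1 TPM 7 were, because more or fewer genes were tested. A threshold of 10% for non-coding transcripts gave 5 members in place of 3, and the second quantification gave 3, of which 2 were shared (Trim28 and Trim12a). Leaving out each replicate gave 5 to 6 members above, 17 below, 0 variable, 0 different between the quantifications and 3 to 4 with non-coding transcripts. The counts of 0 stayed at 0 under every alternative run, which for variability were other scalings, count filters and a common dispersion.

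Some of the 38 tested members changed side of the reference. With FPKM this held for Trim27 (0.10), Trim44 (0.10), Trim21 (0.11), Trim36 (0.17) and Trim12c (0.20), and with the second quantification for Trim26 (-0.043), Trim13 (-0.068) and Trim41 (-0.46). Against the reference of at least 5 TPM it held for Trim26 (-0.46), Trim8 (-0.40), Trim13 (-0.55), Trim14 (-0.45), Trim41 (-1.02), Trim12a (-0.26) and Trim30d (-0.020), which had been called above, because that reference is higher. Without 1 replicate the differences were -0.091 to 0.020 for Trim36, -0.093 to 0.11 for Trim41 and -0.14 to 0.11 for Trim12c. Trim47 was no longer below with FPKM (-0.86) or a pseudocount of 1 (-0.89), and that pseudocount also ended the calls of Trim28 (0.96) and Trim30d (0.92). Over all member values and alternatives, 327 kept direction and call, 12 lost a call, 11 gained it and 18 changed direction. The cause was not tested for FPKM, the second quantification or the pseudocount. For the members no longer called above with the second quantification, the median-centred log2 ratio, second over first, was -0.12 (Trim35), 0.033 (Trim30d) and -0.33 (Trim28).

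No paired analysis was possible because there was 1 group. With 3 libraries from the same donor identifier, no untreated cells and no nuclear fraction, the values describe these libraries only. Members under 0.1 TPM rest on few counts, and their order is not resolved at this depth.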
